A study of Mus musculus with 9 samples.

Results

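Npnt encodes nephronectin, a secreted protein of basement membranes and other extracellular matrix, and Itga8 encodes integrin alpha 8, the receptor subunit that binds it. The 2 genes are the members described here, taken by gene name from 3 deposited tables that together hold 17093 genes. They were chosen by their measured levels in these same libraries, which were already known to differ between the groups. Their levels and fold changes are therefore given as a description, with no test.

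Femoral arteries of C57BL/6 mice were stripped to their media, which is made of smooth muscle, and the RNA was sequenced. The 9 libraries form 3 groups of 3. In the inhibitor-treated group, wire injury was followed by gavage with VS-4718, a drug that blocks focal adhesion kinase (FAK), at 50 mg/kg and 2 doses daily over 2 weeks, and the arteries were collected on day 14. The injured group had the same injury and day of collection with citrate vehicle, and the sham group was sham-operated. According to the labels, the outer layers were removed under a microscope, and endothelial and immune cells were stripped by a brief rinse of the lumen with TRIzol. How many mice stand behind a library is not given, so a p-value here reflects the spread between libraries, part of which may be technical.

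Integrin alpha 8 pairs with beta 1 alone, and the resulting receptor recognises the RGD motif, a short peptide carried by nephronectin and by other matrix proteins such as fibronectin, vitronectin, tenascin C and osteopontin. In the mouse, the pair is best known from the developing kidney, where nephronectin laid down by the ureteric bud engages alpha 8 on the surrounding mesenchyme and is needed for normal expression of the growth factor Gdnf. Integrin alpha 8 is also found on contractile vascular smooth muscle. FAK is a tyrosine kinase that acts downstream of integrins at adhesion sites.

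The libraries held between 14676891 and 21248740 recovered reads. Defining genes of contractile smooth muscle were abundant in these media samples: the 14 listed, among them Acta2 and Myh11, summed to between 844856 and 856765 normalised counts in inhibitor-treated, between 244714 and 275689 in injured and between 726283 and 962829 in sham libraries. A normalised count is a gene's read count divided by a factor for its library. Some libraries stood apart on genes of other tissues, and skeletal muscle genes also differed between injured and sham libraries, as given below. Injured replicate 2 had 521137 normalised counts summed over 10 skeletal muscle genes, while injured replicates 1 and 3 had 60756 and 31288. The 8 hepatocyte genes summed to 25074 in inhibitor-treated replicate 3 and to at most 125 in any other library. Sham replicate 3 was the highest of the sham libraries on skeletal muscle genes, at 29865. Inhibitor-treated replicate 2 had 36808 on these genes, against 2349 and 8285 in inhibitor-treated replicates 1 and 3. Injured replicate 2, inhibitor-treated replicate 3 and sham replicate 3, the 3 libraries meant below, were left out together in an alternative analysis, while inhibitor-treated replicate 2 was left out on its own. Counts that moved without the 3 libraries are given for the gene groups around the pair.

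Npnt (ENSMUSG00000040998) lies on the minus strand at chr3:132881745-132950291 of GRCm38 and has 5.026 kb of merged exon sequence. Itga8 (ENSMUSG00000026768) lies on the minus strand at chr2:12106632-12301922, with 33 merged exons and 7.368 kb of exon sequence. The start of Itga8 overlaps E030013I19Rik, an antisense gene on the plus strand at chr2:12300946-12312315. The exons of the 2 genes share 372 bases, which are 9.87% of the antisense gene's exon bases and 5.05% of those of Itga8. Whether the counting used strand is not given in the sources used here, so reads from the shared bases cannot be told apart.

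RefSeq (GRCm38.p6) lists 2 promoter windows for Npnt and 1 for Itga8, each 300 bases long. They are shown, on the minus strand, because these are the starts that RefSeq annotates for the pair; which of them is used in these arteries was not tested. Capitals mark matches, on either strand, to the motifs searched.
Npnt promoter 1, chr3:132950242-132950541: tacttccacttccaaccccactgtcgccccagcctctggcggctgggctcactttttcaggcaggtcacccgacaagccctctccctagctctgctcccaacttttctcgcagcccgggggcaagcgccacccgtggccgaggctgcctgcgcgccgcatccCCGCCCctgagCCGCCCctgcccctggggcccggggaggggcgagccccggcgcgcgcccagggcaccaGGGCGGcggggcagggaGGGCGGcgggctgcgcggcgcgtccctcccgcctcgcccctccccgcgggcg
Npnt promoter 2, chr3:132949765-132950064: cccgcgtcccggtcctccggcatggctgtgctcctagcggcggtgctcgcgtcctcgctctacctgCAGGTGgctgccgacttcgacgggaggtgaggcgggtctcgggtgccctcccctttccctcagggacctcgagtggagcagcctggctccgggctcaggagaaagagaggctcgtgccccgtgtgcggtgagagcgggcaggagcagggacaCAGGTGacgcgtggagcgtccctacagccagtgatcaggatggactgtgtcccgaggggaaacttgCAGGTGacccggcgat
Itga8 promoter, chr2:12301895-12302194: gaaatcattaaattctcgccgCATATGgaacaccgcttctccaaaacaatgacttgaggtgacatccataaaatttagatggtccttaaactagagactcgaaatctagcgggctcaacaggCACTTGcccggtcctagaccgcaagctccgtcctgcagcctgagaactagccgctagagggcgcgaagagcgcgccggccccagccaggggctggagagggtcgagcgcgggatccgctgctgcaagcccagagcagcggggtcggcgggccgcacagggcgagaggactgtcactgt
The motifs were the CArG box (the serum response factor site of many contractile genes), the MCAT element CATTCC, the E box CANNTG, the AP-1 site TGANTCA, the GC box GGGCGG and the TATA box TATAAA. Npnt promoter 1, in which 76.7% of bases are G or C, held 4 GC boxes, and 35.7% of all 32851 promoters of this length held at least 1. Npnt promoter 2, with 68.0% G or C, held 3 E boxes, all reading CAGGTG. The Itga8 promoter, with 59.0% G or C, held 2 E boxes, 1 CATATG and 1 CACTTG. E boxes were present in 72.3% of all promoters. None of the 3 windows held a CArG box, MCAT element, AP-1 site or TATA box, which were present in 1.63%, 14.7%, 7.81% and 13.6% of all promoters. That says only that these letters are not in these windows. The first exon of E030013I19Rik, chr2:12300946-12302285, covers the whole Itga8 window on the other strand.

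Npnt was at similar levels in inhibitor-treated and sham media and far lower in injured media. It had 18886, 18915 and 20581 normalised counts in the inhibitor-treated libraries, against 1439, 1227 and 1447 in the injured libraries. The sham libraries had 24203, 20566 and 17065. Every injured library was below every library of the other groups, and the inhibitor-treated values lay within the sham range. The lower end of that range was sham replicate 3, the sham library highest on skeletal muscle genes. Inhibitor-treated replicates 1 and 2 lay below sham replicates 1 and 2. The lowest inhibitor-treated library was 13.0 times the highest injured library, and the lowest sham library was 11.8 times that library. Group means were 19461 ± 970 in inhibitor-treated, 1371 ± 125 in injured and 20611 ± 3570 in sham libraries (SD, n = 3 each). Injured libraries thus held 6.65% of the sham mean, and inhibitor-treated libraries 94.4% of it. The log2 fold change was 3.83 ± 0.10 (SE) for inhibitor-treated over injured, -3.91 ± 0.15 for injured over sham and -0.06 ± 0.13 for inhibitor-treated over sham. The last of these has an SE larger than its size. It turns positive, to 0.07, with ribosomal protein scaling and, also to 0.07, without sham replicate 1. It was further below 0 in other alternatives, at -0.14 with quantile normalisation, -0.18 without sham replicate 3 and -0.22 without the 3 libraries.

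Itga8 showed the same order of groups. It had 43424, 39810.5 and 48327 normalised counts in the inhibitor-treated libraries, against 3397, 4329 and 6080.2 in the injured libraries. The sham libraries had 54667, 48032 and 48003. The injured libraries again lay below all others, with replicate 3 at 1.79 times replicate 1, and the inhibitor-treated and sham ranges overlapped only between the highest inhibitor-treated library and the lower sham libraries. Group means were 43854 ± 4275 in inhibitor-treated, 4602 ± 1362 in injured and 50234 ± 3839 in sham libraries (SD, n = 3 each). Injured libraries held 9.16% of the sham mean and inhibitor-treated libraries 87.3% of it. The log2 fold change was 3.29 ± 0.21 (SE) for inhibitor-treated over injured, -3.49 ± 0.21 for injured over sham and -0.19 ± 0.11 for inhibitor-treated over sham. The last of these was -0.06 with ribosomal protein scaling and -0.29 without the 3 libraries.

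**Figure D1:**
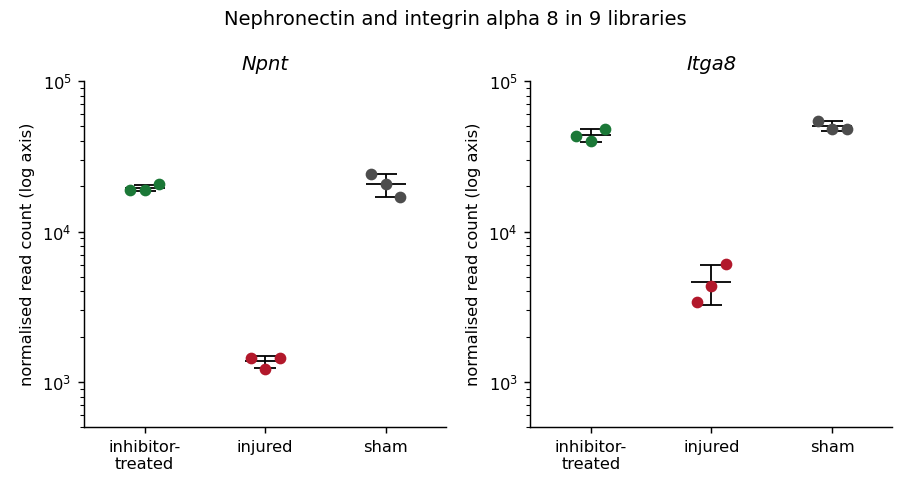
Normalised read counts of Npnt (left) and Itga8 (right) on a log axis, with 1 point per library, the mean as a wide bar and the SD as capped lines (n = 3 per group). The injured libraries lie between 1227 and 1447 for Npnt and between 3397 and 6080.2 for Itga8, below every inhibitor-treated and sham library.

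The smallest count behind these values, 1206 reads of Npnt in injured replicate 1, has a counting error of 2.88%, while the spread between libraries of a group was larger, up to a coefficient of variation of 29.6% for Itga8 in injured libraries. Among all genes tested, groups did not overlap in 26.1% that were higher in inhibitor-treated than in injured libraries, and in 25.3% that were lower in injured than in sham libraries. Ordered by fold change, 163 of 16901 genes had a larger increase than Npnt in inhibitor-treated over injured media, and 226 a larger one than Itga8. For injured over sham, 58 of 16278 genes had a larger decrease than Npnt, and 89 a larger one than Itga8. The comparisons share the injured libraries, so the 2 sets of ranks are not independent. Without injured replicate 2, sham replicate 3 and inhibitor-treated replicate 3, the log2 fold change of inhibitor-treated over injured was 3.71 for Npnt and 3.19 for Itga8, and that of injured over sham was -3.96 for Npnt and -3.50 for Itga8. In bulk media, fewer cells that express a gene and less RNA per cell cannot be told apart.

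Per kb of exon, Npnt averaged 3872 ± 193 normalised counts in inhibitor-treated, 273 ± 24.8 in injured and 4101 ± 710.2 in sham libraries (SD, n = 3). On the same scale Itga8 averaged 5952 ± 580.2 in inhibitor-treated, 625 ± 185 in injured and 6818 ± 521 in sham libraries. Itga8 was thus the higher of the pair in each group. Among 16713 genes with an exon length, 182 was the rank of Npnt and 97 that of Itga8 in inhibitor-treated libraries, counted from the highest. The ranks were 3170 and 1295 in injured libraries and 168 and 76 in sham libraries.

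The ratio of receptor to ligand varied most among injured libraries. The log2 ratio of Itga8 to Npnt was 1.20, 1.07 and 1.23 in inhibitor-treated libraries, against 1.24, 1.82 and 2.07 in injured and 1.18, 1.22 and 1.49 in sham libraries. Injured replicate 1 lay within the sham range, and injured replicates 2 and 3 lay above all other libraries. The mean ratio was 1.17 ± 0.08 in inhibitor-treated, 1.71 ± 0.43 in injured and 1.30 ± 0.17 in sham libraries (SD, n = 3).

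The contractile genes that were called moved in the direction of the pair, each by less than Npnt or Itga8. For inhibitor-treated over injured, 13 of the 14 contractile genes rose and none fell, with a median log2 fold change of 1.75. Over all genes tested in that comparison 36.1% were called, meaning an adjusted p under 0.05 by limma with Benjamini-Hochberg adjustment, and the median was 0.01. For injured over sham, 13 of 14 fell and none rose, with a median of -1.71, against 37.3% of all genes called and a median of 0.00. None of the 14 was called in inhibitor-treated over sham, by limma at an unadjusted p under 0.05, by edgeR or by DESeq2, and the median there was 0.01. The exception in the other comparisons was Des, desmin, at 0.10 ± 0.42 for inhibitor-treated over injured and 0.18 ± 0.42 for injured over sham. Its SE was the largest of the 14 in those comparisons, and the part of skeletal muscle in its values was not tested. The largest contractile changes were those of Kcnmb1, a subunit of the large-conductance potassium channel, at 2.30 ± 0.09 for inhibitor-treated over injured and -2.36 ± 0.13 for injured over sham. Npnt and Itga8 each differed by more than Kcnmb1 in those comparisons.

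Set against the mean log2 level of the 14 contractile genes, Npnt stood at -0.72 ± 0.08 in inhibitor-treated, -2.98 ± 0.23 in injured and -0.62 ± 0.20 in sham libraries (SD, n = 3). Itga8 stood at 0.45 ± 0.16 in inhibitor-treated, -1.27 ± 0.43 in injured and 0.68 ± 0.21 in sham libraries. On this scale too, every injured library was below every other library for each gene. The share of all genes that do so on this scale was not counted.

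**Figure D2:**
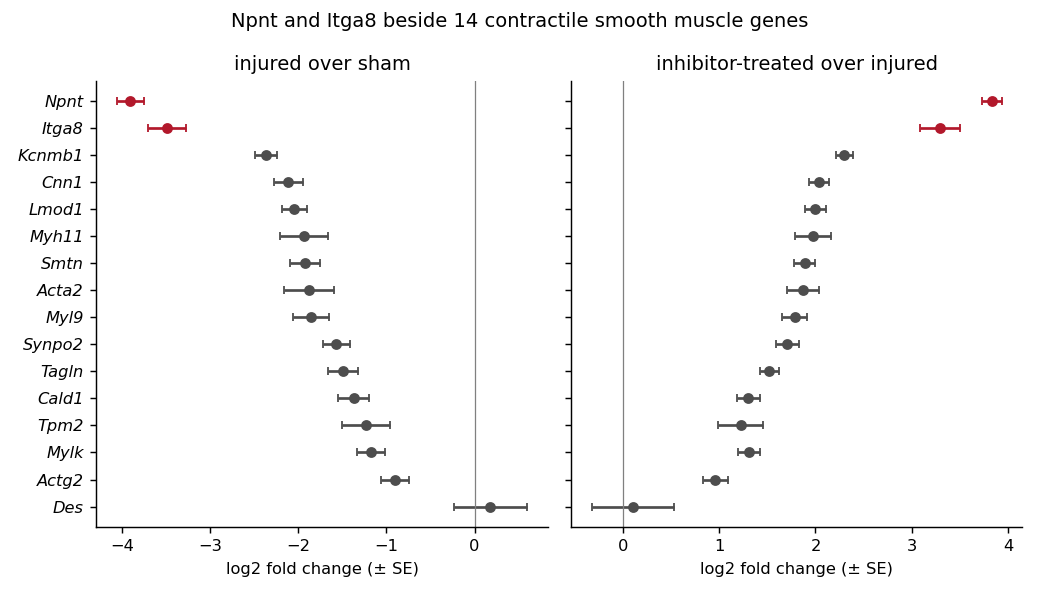
Log2 fold changes with SE of Npnt and Itga8 (red) and of 14 contractile smooth muscle genes (grey), for injured over sham on the left and inhibitor-treated over injured on the right. Npnt, at -3.91 and 3.83, and Itga8, at -3.49 and 3.29, lie beyond every contractile gene, of which Kcnmb1 is the nearest.

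The receptor's partner changed less than the receptor. Itgb1, which encodes the beta 1 chain shared by many integrins, had 31209, 32003 and 32847 normalised counts in inhibitor-treated libraries, against 17304, 19202 and 20969 in injured and 36156, 32507 and 28512 in sham libraries. It rose by 0.75 ± 0.12 on the log2 scale in inhibitor-treated over injured (adjusted p = 0.0028) and fell by 0.76 ± 0.17 in injured over sham (adjusted p = 0.00817). The log2 ratio of Itga8 to Itgb1 was 0.45 ± 0.12 in inhibitor-treated, -2.09 ± 0.29 in injured and 0.64 ± 0.10 in sham libraries (SD, n = 3).

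Among the 17 integrin alpha subunits measured, Itga8 was the highest per kb in every inhibitor-treated and every sham library. In every injured library it came after Itga5, the alpha subunit of the classical fibronectin receptor. Itga8 made up 50.4 ± 3.61% of all alpha subunit counts per kb in inhibitor-treated, 17.7 ± 3.64% in injured and 57.1 ± 2.73% in sham libraries (SD, n = 3). The ranges were 46.6 to 53.8% in inhibitor-treated, 14.9 to 21.8% in injured and 54.1 to 59.4% in sham libraries. Itga5 had 1885 ± 366 normalised counts per kb in inhibitor-treated, 884 ± 28.3 in injured and 1492 ± 135 in sham libraries. Itga9, another subunit that pairs with beta 1, had 1620.1 ± 139 in inhibitor-treated, 357 ± 52.4 in injured and 1663 ± 302 in sham libraries.

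**Figure D3:**
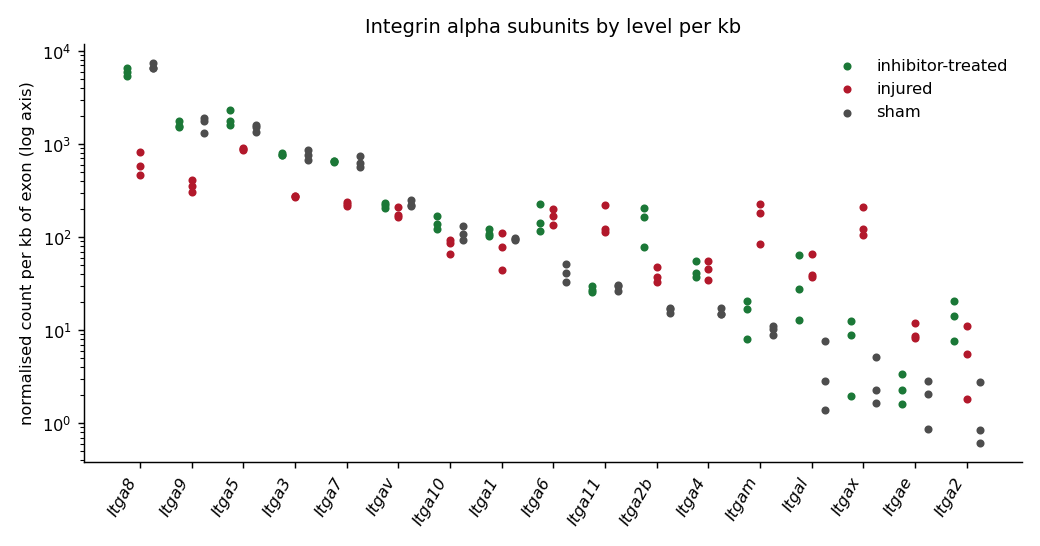
Normalised counts per kb of exon on a log axis for 17 integrin alpha subunits, with 1 point per library and the subunits ordered by their mean in sham libraries. Itga8 leads in inhibitor-treated and sham libraries, and in injured libraries it lies below Itga5.

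Of 63 listed genes around the pair, 61 passed the minimum mean of 10 normalised counts in the comparisons with injured libraries. Of these, Egfl6, Itgb6 and Frem1 passed it only through the injured group, which fixes their direction, so they are described by their levels and left out of the counts below. Of the other 58, 21 rose and 14 fell in inhibitor-treated over injured, beside 17.6% and 18.5% of all genes. In injured over sham 17 rose and 19 fell, beside 20.6% and 16.8% of all genes. Those shares also stand beside the counts of single lists below. These comparisons share the injured libraries, so opposite calls in them are not independent. In inhibitor-treated over sham, 5 of the 58 rose and none fell, beside 6.08% of all genes called, 5.15% higher and 0.934% lower. The 5 were Itga2b, Itgb3, Ptk2b, Lims1 and Vcl. That call was lost in 10 of 19 alternative analyses for Itgb3, in 5 for Vcl, in 3 for Ptk2b and in 1 for Lims1. At an unadjusted p under 0.05, 2 of the 58 were lower in that comparison, and edgeR and DESeq2 on the recovered reads each called 0 lower. Without the 3 libraries, 14 rose and 8 fell in inhibitor-treated over injured, 11 rose and 17 fell in injured over sham, and 4 rose and 1 fell in inhibitor-treated over sham.

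Among the other ligands of alpha 8, no gene fell in injured media. Of 6 such genes, 2 fell (Spp1 and Fbn1) and none rose in inhibitor-treated over injured, and 5 rose and none fell in injured over sham. Without the 3 libraries, 1 fell and 3 rose in those comparisons. Calls for Fbn1 were lost in 5 and 4 of 19 alternative analyses. In inhibitor-treated over sham none of the 6 was called, with 2 higher at an unadjusted p under 0.05 and 1 called by DESeq2. The directions with no call in the first pair of comparisons also held 0 genes at an unadjusted p under 0.05 and 0 by edgeR or DESeq2. The median log2 fold change was -0.59 for inhibitor-treated over injured and 0.72 for injured over sham. With scaling on ribosomal protein genes, 1 fell in inhibitor-treated over injured and 2 rose in injured over sham. Egfl6, which encodes the closest relative of nephronectin, was nearly absent outside injured media, with 4.75, 3.67 and 11.8 normalised counts in inhibitor-treated libraries, 124, 33.2 and 48.1 in injured libraries and 1.00, 0 and 2.18 in sham libraries. Egfl6 passed the minimum mean only through the injured group, so its direction is a description.

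Spp1, which encodes osteopontin, a phosphoprotein made by macrophages and by smooth muscle cells that have left the contractile state, had 67.4, 1948 and 158 normalised counts in inhibitor-treated libraries. It had 6730.4, 7232 and 3279 in injured libraries and 90.1, 104 and 92.6 in sham libraries. Inhibitor-treated replicate 2 stood well above the others of its group, yet below every injured library. Spp1 fell by 4.29 ± 1.11 on the log2 scale in inhibitor-treated over injured (adjusted p = 0.0213, a call lost in 7 of 19 alternative analyses) and rose by 5.81 ± 0.28 in injured over sham (adjusted p = 1.07e-05). Fn1, fibronectin, and Vtn, vitronectin, rose in injured over sham by 0.72 ± 0.21 and 2.05 ± 0.16, while the call for Fn1 is lost in 6 of 19 alternative analyses. Tnc, tenascin C, had -0.16 ± 0.26 there and 0.23 ± 0.23 in inhibitor-treated over injured. Vtn varied widely among inhibitor-treated libraries. Per kb of exon it averaged 128 ± 137 normalised counts there, 148 ± 14.4 in injured and 35.0 ± 1.09 in sham libraries (SD, n = 3). The part of hepatocyte RNA in the Vtn values was not tested.

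Among 7 other RGD-related integrin subunits, 5 rose and none fell in inhibitor-treated over injured, and 1 rose and 4 fell in injured over sham. Without the 3 libraries, 4 rose in inhibitor-treated over injured. With all libraries, 0 of the 7 were lower in that comparison at an unadjusted p under 0.05 by limma or called lower by edgeR or DESeq2. Itgb6, another partner of the alpha v chain, had 0, 13.8 and 4.54 normalised counts in inhibitor-treated, 43.0, 120.4 and 12.9 in injured and 3.00, 0 and 5.44 in sham libraries, and the inhibitor-treated and injured ranges overlapped. Itgb1, Itga5, Itgb3 and Itgb5 fell in injured media and rose in inhibitor-treated media. Itgb5, a partner of the alpha v chain, showed the largest fall of these, by 1.46 ± 0.15 on the log2 scale in injured over sham (adjusted p = 0.000161), and rose by 1.26 ± 0.11 in inhibitor-treated over injured (adjusted p = 0.000244). Itga2b, the platelet integrin subunit, had 429, 901 and 1114 normalised counts in inhibitor-treated libraries, 258, 202 and 179 in injured libraries and 94.1, 83.2 and 91.5 in sham libraries. It rose in all 3 comparisons, although the call in inhibitor-treated over injured was lost without the 3 libraries. The 7 erythroid genes summed to between 37875 and 88828 normalised counts in inhibitor-treated libraries, between 85.3 and 196 in injured and between 185 and 367 in sham libraries. The part of blood cells in the Itga2b values was not tested.

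Fras1, Frem1 and Frem2 encode matrix proteins that, in mouse skin and kidney, hold nephronectin at the basement membrane. Of 12 such genes and basement membrane components, 3 rose and 3 fell in inhibitor-treated over injured, beside 17.6% and 18.5% of all genes. In injured over sham 3 rose and 3 fell, beside 20.6% and 16.8% of all genes. Without the 3 libraries, 2 fell and 2 rose in those comparisons, in place of 3 each. The genes that rose in injured media were Fras1, Nid1 and Nid2, and those that fell were Hspg2, Lama5 and Lamb2. Each of the 6 was called in the other direction in inhibitor-treated over injured, a comparison that uses the same injured libraries. That call was lost for Fras1 in 14 of 19 alternative analyses, and its rise in injured over sham in 6. Frem1 had 1.90, 5.50 and 1.82 normalised counts in inhibitor-treated, 37.0, 37.0 and 79.9 in injured and 2.00, 7.03 and 7.62 in sham libraries. Nid1, the basement membrane linker nidogen 1, had 3229, 3298 and 2949 normalised counts in inhibitor-treated libraries, against 7572, 7203 and 10023 in injured and 3035, 2831 and 3255 in sham libraries. Lamb2, the laminin beta 2 chain, had 17533, 16632 and 18017 in inhibitor-treated libraries, against 6878, 7637 and 9608 in injured and 17762, 19563 and 17267 in sham libraries. The type IV collagen genes Col4a1 and Col4a2 were not called in any comparison.

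Listed genes of ureteric bud signalling in the kidney had between 6.53 and 527 normalised counts in any library, and those called moved opposite to the pair. Of 8, none rose and 6 fell in inhibitor-treated over injured, and 5 rose and none fell in injured over sham. With scaling on ribosomal protein genes 2 fell and 3 rose in those comparisons, and without the 3 libraries 4 fell and 4 rose. The rise of Wnt11 in injured over sham was lost in 8 of 19 alternative analyses and its fall in inhibitor-treated over injured in 2. The fall of Gfra1 was lost in 3. No gene of this list was called in inhibitor-treated over sham by limma, edgeR or DESeq2 with all libraries; 1 was lower at an unadjusted p under 0.05, and 1 was called lower without the 3 libraries. Gdnf, the growth factor itself, had 13.3, 23.8 and 15.4 normalised counts in inhibitor-treated, 17.9, 19.9 and 20.6 in injured and 14.0, 19.9 and 6.53 in sham libraries, and the groups overlapped. Ret, which encodes the signalling receptor for Gdnf, had 117, 168 and 144 in inhibitor-treated, 409, 390 and 258 in injured and 164, 128 and 137 in sham libraries. It fell by 1.28 ± 0.22 on the log2 scale in inhibitor-treated over injured (adjusted p = 0.00404, a call lost without the 3 libraries) and rose by 1.27 ± 0.21 in injured over sham (adjusted p = 0.00196). Etv4, a transcription factor induced by Ret signalling in the kidney, fell by 3.02 ± 0.34 and rose by 2.40 ± 0.38 in those comparisons. Etv4 was low outside injured media. Per kb of exon it averaged 3.70 ± 1.57 normalised counts in inhibitor-treated, 30.9 ± 4.55 in injured and 6.06 ± 3.33 in sham libraries (SD, n = 3). The sum of 7 Schwann and nerve genes was 2049 to 3319 normalised counts in inhibitor-treated, 3044 to 4723 in injured and 1451 to 2400 in sham libraries, and its part in the Ret and Gfra1 values was not tested.

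Of 11 transcription factors of smooth muscle, 5 rose and 1 fell in inhibitor-treated over injured, and 1 rose and 4 fell in injured over sham. Without the 3 libraries, 3 rose and none fell in inhibitor-treated over injured, none rose and 4 fell in injured over sham, and 1 rose in inhibitor-treated over sham. Myocd, the cofactor that drives contractile genes with Srf, had 1716, 1573 and 1141 normalised counts in inhibitor-treated, 171, 294 and 420.0 in injured and 1188, 1210 and 1079 in sham libraries. It rose by 2.40 ± 0.32 on the log2 scale in inhibitor-treated over injured (adjusted p = 0.0013) and fell by 2.07 ± 0.28 in injured over sham (adjusted p = 0.000685). Srf rose by 0.95 ± 0.08 and fell by 0.92 ± 0.12 in those comparisons. Klf4, a repressor of contractile genes, fell by 0.89 ± 0.23 and rose by 0.84 ± 0.25, with the calls lost in 5 and 4 of 19 alternative analyses. The Srf cofactors Mkl1 and Mkl2, and Tead1, which binds MCAT elements, were not called in any comparison.

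The adhesion plaque links integrins to actin. Of its 14 listed genes, 8 rose and 2 fell in inhibitor-treated over injured, and 2 rose and 8 fell in injured over sham. Without the 3 libraries, 4 rose and 1 fell in inhibitor-treated over injured, and 1 rose and 6 fell in injured over sham. Calls in inhibitor-treated over injured were lost in 9 of 19 alternative analyses for Lims1 and in 2 each for Pxn and Vcl. Those in injured over sham were lost in 6 each for Parva and Vcl and in 4 for Pxn. Ilk, integrin-linked kinase, had 855, 808 and 838 normalised counts in inhibitor-treated, 122, 278 and 416 in injured and 826, 841 and 687 in sham libraries, and its call in inhibitor-treated over injured was lost without the 3 libraries. Lims2, a partner of Ilk also known as Pinch2, rose by 1.89 ± 0.08 on the log2 scale in inhibitor-treated over injured (adjusted p = 3.34e-05) and fell by 2.08 ± 0.11 in injured over sham (adjusted p = 1.36e-05). Ptk2, which encodes the kinase FAK that the drug inhibits, had 1069, 1078 and 1042 normalised counts in inhibitor-treated, 1228, 1205 and 1409 in injured and 1070.4, 1013 and 1051 in sham libraries. Its log2 fold change was -0.26 ± 0.10 in inhibitor-treated over injured (adjusted p = 0.0702) and 0.28 ± 0.11 in injured over sham (adjusted p = 0.0684). The related kinase gene Ptk2b fell by 0.68 ± 0.19 and rose by 1.59 ± 0.16 in those comparisons, and rose by 0.92 ± 0.18 in inhibitor-treated over sham (adjusted p = 0.0236). Its fall was lost in 4 of 19 alternative analyses, among them scaling on ribosomal protein genes, and its rise over sham in 3.

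**Figure D4:**
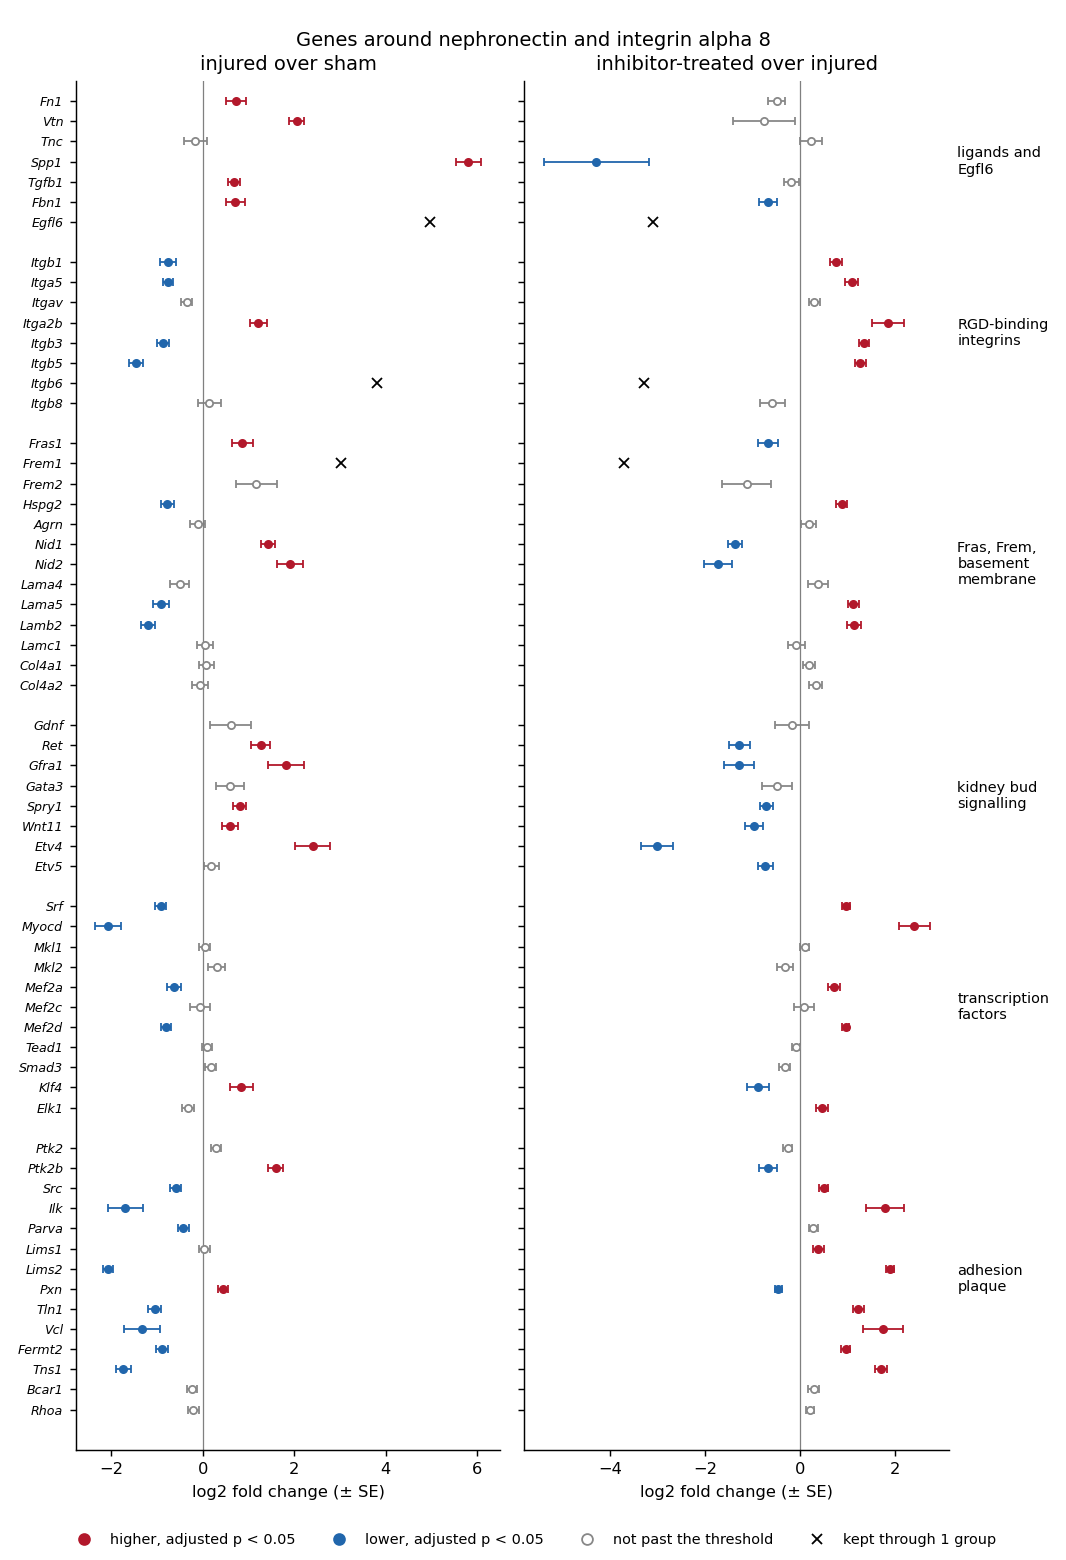
Log2 fold changes with SE of the listed genes tested, in 6 lists, for injured over sham on the left and inhibitor-treated over injured on the right. Filled points passed an adjusted p of 0.05, and crosses mark Egfl6, Itgb6 and Frem1, which were kept through the injured group alone; the kidney genes lie above 0 on the left and below 0 on the right, opposite to Myocd, Ilk and Lims2.

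Markers of other cells moved between the groups as well. In inhibitor-treated over injured, all 10 macrophage genes fell, and 9 of 10 fibroblast genes fell and 1 rose. Of 10 endothelial genes, 6 fell and none rose there, beside 18.5% of all genes lower and 17.6% higher. In injured over sham, all 10 macrophage genes rose, 8 fibroblast genes rose and 1 fell, and 6 endothelial genes rose and none fell. Of all genes in that comparison, 20.6% were higher and 16.8% lower. The summed macrophage level was 5410 to 9633 normalised counts in inhibitor-treated, 32494 to 49555 in injured and 3879 to 5381 in sham libraries, and no macrophage, fibroblast or endothelial gene was at 0 in all libraries of a group. The summed fibroblast level was 157589 to 178562 in inhibitor-treated, 440584 to 676410 in injured and 171721 to 199010 in sham libraries. Pericyte genes, another mural cell set, summed to 46534 to 51170 in inhibitor-treated, 22400 to 29599 in injured and 34284 to 45335 in sham libraries, with 4 of 7 rising in inhibitor-treated over injured, 2 of 7 without the 3 libraries, and 3 of 7 falling in injured over sham. Of 10 skeletal muscle genes, 7 rose and none fell in injured over sham, and 9 rose without the 3 libraries. For inhibitor-treated over injured, 2 of them fell and none rose, and none was called without the 3 libraries. The part of these cells in the Npnt and Itga8 values was not tested.

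The genes whose levels ran closest to the pair over the 9 libraries were found by the root mean square difference between centred log2 levels, over 11635 genes. The nearest to Npnt was E030013I19Rik, at 0.16, followed by Col4a6 at 0.18, Adra1d at 0.20 and Ptprz1 at 0.21. Optc, Aknad1, Gm830 and Rgs7 completed its 8 nearest, up to 0.30, beside a median over all genes of 1.81. The nearest to Itga8 was Thsd4, at 0.13, followed by Col4a6 at 0.23 and Itih4 at 0.28. Adra1d, Gm830, Ptprz1 and Fblim1 were also among its 8 nearest, up to 0.31, beside a median of 1.60. The sets of 8 share 4 genes, Adra1d, Col4a6, Gm830 and Ptprz1. Itga8 ranked 11 among the profiles nearest to Npnt, and Npnt ranked 10 among those nearest to Itga8, at 0.32.

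Col4a6 encodes a chain of type IV collagen, the network collagen of basement membranes. It had 3766, 3688 and 4244 normalised counts in inhibitor-treated libraries, against 294, 242 and 403 in injured and 4429.9, 4475 and 4207 in sham libraries. Its injured libraries lay below all others, unlike those of Col4a1 and Col4a2. Thsd4, a microfibril-associated protein of the thrombospondin-repeat family, had 7220, 6893 and 7823 in inhibitor-treated libraries, against 611, 752 and 972 in injured and 7785, 7092 and 6506 in sham libraries. Adra1d, an alpha-1 adrenergic receptor of vascular smooth muscle, had 922, 759 and 678 in inhibitor-treated libraries, against 72.8, 61.6 and 70.4 in injured and 1057, 789 and 739 in sham libraries. These genes were picked for their likeness to the pair, so their differences are a description.

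**Figure D5:**
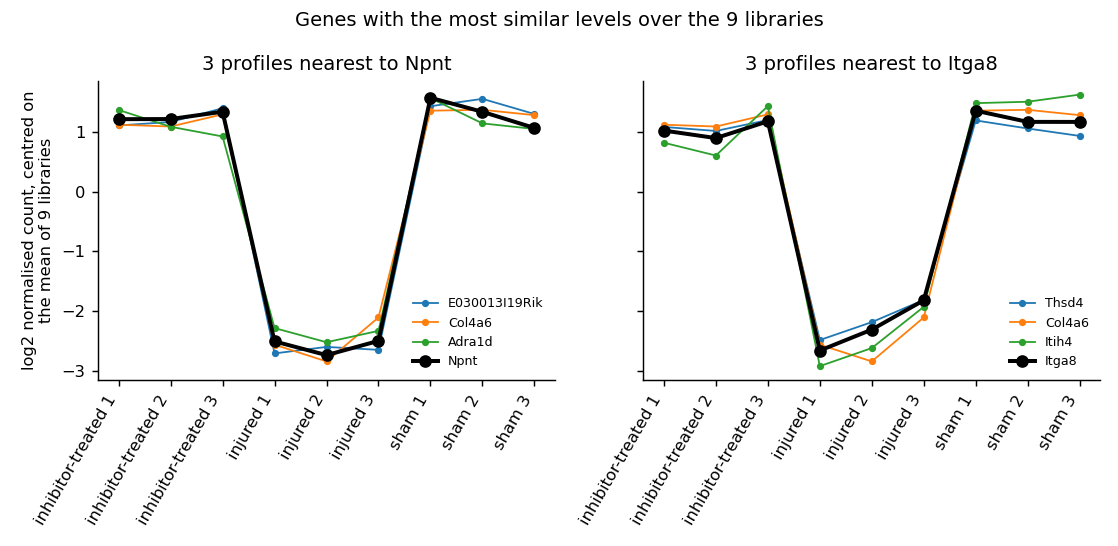
Log2 normalised counts of the 3 genes nearest to Npnt (left) and to Itga8 (right), each centred on its mean over the 9 libraries, with the member itself in black. In all of them the 3 injured libraries lie below the inhibitor-treated and sham libraries.

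The antisense gene that overlaps the start of Itga8 lay nearer to Npnt than to Itga8 in its levels. E030013I19Rik had 4796, 4995 and 5853 normalised counts in inhibitor-treated libraries, against 341, 368 and 356 in injured and 5994, 6528 and 5478 in sham libraries. Relative to Itga8 it stood at 11.0, 12.5 and 12.1% in inhibitor-treated, between 5.85 and 10.0% in injured and 11.0, 13.6 and 11.4% in sham libraries. Per kb of exon it averaged 1384 ± 149 normalised counts in inhibitor-treated, 94.2 ± 3.55 in injured and 1592 ± 139 in sham libraries (SD, n = 3).

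Another short annotated transcript, Gm37701, lies within Itga8 on the same strand, at chr2:12128643-12129742, between exons of Itga8. Reads of unspliced Itga8 RNA there cannot be told apart from those of Gm37701. It had 21.8, 11.9 and 16.4 normalised counts in inhibitor-treated libraries, against 5.97, 0.948 and 3.44 in injured and 24.0, 12.9 and 22.9 in sham libraries.

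Other neighbouring genes differed by less than the pair. The nearest measured protein-coding genes around Npnt, Tbck and Gstcd, rose in injured over sham by 0.45 ± 0.13 (adjusted p = 0.0224) and 0.62 ± 0.18 (adjusted p = 0.0251) on the log2 scale, and in inhibitor-treated over injured they had -0.29 ± 0.11 and -0.38 ± 0.16. Beside Itga8, Mindy3 fell by 0.46 ± 0.14 in injured over sham (adjusted p = 0.0312) and had 0.41 ± 0.14 in inhibitor-treated over injured (adjusted p = 0.0502). Ankrd16 and Fbxo18, on the other side of Itga8, had -0.05 ± 0.20 and -0.20 ± 0.17 in injured over sham, and were not called in any comparison.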

How the data were processed

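The genome build named is mm10 (GRCm38), per the submitters' processing notes. How reads were aligned and counted, whether by strand, and how the authors tested are points not given in the sources used here. The authors deposited 3 tables, one for each pair of groups, and per the file headers each holds normalised counts for 6 libraries with a log2 fold change, p-value and adjusted p-value. The library columns are a normalised signal deposited by the authors, who divided each library's counts by a factor set separately in each table, as read from the values. The authors' deposited log2 fold change and p-value columns entered only an alternative analysis.

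The value of 1 read was estimated from the low values of each column. Dividing by it gave whole reads for 100% of values, within 0.01 of a read, with 0 conflicts between tables that share a library. For inhibitor-treated and injured libraries the table lists 16933 genes, for inhibitor-treated and sham 16187, and for injured and sham 16315. Levels were rescaled from these reads with a median-of-ratios factor for each library, over the 16750 genes present in all 9 libraries. Levels per kb used merged exons of GENCODE vM21 (GRCm38).

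Fits used limma 3.58.1 (R 4.3.3) on the table of the pair compared. Values were log2(normalised count + 1), genes with a mean under 10 were dropped, the variance was trended and the model held group alone. Adding 1 understates the change of low genes. P-values are two-sided and adjusted by the Benjamini-Hochberg method over all genes, with a threshold of 0.05. Errors are SE beside log2 fold changes and SD beside levels. The method was tested on simulated data with the same spread for all genes and groups and no outlying library. That test therefore does not cover the uneven spread of these libraries. Alternatives used edgeR 4.0.16 and DESeq2 1.42.0 on the recovered reads, other pseudocounts (0.5 and 10), filters and scalings, all 9 libraries in one fit, a replicate block, and fits that leave out libraries.

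Members, the 6 gene lists, the 10 marker lists and the rule for named genes were chosen with earlier results of these data known. Named genes are list members, the 8 genes nearest to each member by centred log2 profile among genes in all 3 tables with a mean of at least 100, and the nearest genes on either side. Frem3 and Grip1 of the lists were not analysed here, and 1 of the nearest genes is not reported here. List genes with a mean under 10 in either group of a comparison were left out of list counts in the report, a choice made after their values were seen.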

Additional observations from a re-analysis of the deposited data

How the results depend on the processing

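No alternative turned round the direction of Npnt or Itga8 in inhibitor-treated over injured or in injured over sham. Scaling on ribosomal protein genes moved the median of all genes by 0.43, -0.29 and 0.12 (log2) in inhibitor-treated over injured, injured over sham and inhibitor-treated over sham. With it, Npnt stood at 4.26 in inhibitor-treated over injured and -4.20 in injured over sham, and Itga8 at 3.72 in inhibitor-treated over injured. Calls then split into 3574 higher and 1286 lower (2976 and 3123 without it), 2031 and 2572 (3346 and 2730), and 1302 and 32 (832 and 151) in those 3 comparisons. Quantile normalisation gave 617 higher and 220 lower in inhibitor-treated over sham, and 3.64 for Npnt in inhibitor-treated over injured. Without injured replicate 2, sham replicate 3 and inhibitor-treated replicate 3, Npnt stood at 3.71 in inhibitor-treated over injured, where 3295 genes were called in place of 6099 and 24 listed genes in place of 37; fewer libraries entered that fit. In inhibitor-treated over sham, leaving out single libraries gave between 518 and 854 called genes (983 with all) and between 2 and 4 called list genes (5 with all), and the fit of all 9 libraries called 2. Without sham replicate 1, 518 genes and 2 list genes were called; without sham replicate 2, 596 genes. Without inhibitor-treated replicate 1 or 2, 598 or 533 genes were called. The causes were not tested.

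Replicate numbers were shared between groups, but libraries of the same number did not deviate together in every pair: the correlations were 0.01, 0.21 and 0.02 in inhibitor-treated over injured, 0.05, -0.06 and -0.07 in injured over sham, and 0.11, -0.07 and 0.06 in inhibitor-treated over sham. With the replicate block, 5747, 5762 and 877 genes and 36, 37 and 4 list genes were called in those comparisons, and skeletal muscle genes called lower in inhibitor-treated over injured numbered 10 in place of 2. Counts of list genes here include Egfl6, Itgb6 and Frem1. Of 81 calls of list genes, 34 were lost in at least 1 alternative and 0 changed direction, over 1533 alternative values. For low genes such as Egfl6, Itgb6 and Gdnf, read depth limits what can be seen.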
